A study of Mus musculus with 8 samples.

Results

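The Bex and Tceal genes are a family of small, mostly X-linked genes, and 9 of them are described here, of 24129 named genes on the arrays: Bex1, Bex2, Bex4, Tceal1, Tceal3, Tceal5, Tceal6, Tceal8 and Ngfrap1, whose current symbol is Bex3. Their readings were taken as every non-control probe whose gene name in the array files is one of these names, which gave 11 of 55681 probes, 1 spot each. The set was put together because Tceal3, Tceal6 and Bex1 were all higher after macroH2A1.1 siRNA in these same arrays, so the siRNA differences of the members are given as a description and nothing is supported with them. Of the 11 probes, 8 (for 7 genes) are called measured, since in macroH2A1.1 siRNA or control siRNA cultures, or both, every one of the 4 arrays was well above background. By the same rule 24987 of all probes were measured. Bex2, Bex4 and a second Tceal3 probe were well above background on 0 of 8 arrays.

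C2C12 is a mouse myoblast line that fuses into myotubes when serum is withdrawn. RNA was taken on day 4 of differentiation from 4 samples with macroH2A1.1 siRNA and 4 with control siRNA, numbered 1 to 4 in each group, and every sample was hybridised to its own 1-colour Agilent array. Both groups were the same line at the same stage, and all were transfected. MacroH2A1 is a histone variant with a macrodomain, which in the macroH2A1.1 isoform can bind ADP-ribose, and the comparison asks what changes in myotubes when it is depleted. The labels call the replicates biological without saying how cultures were made, so all errors measure the spread between these samples, and in bulk RNA a change in the share of cells that express a gene cannot be told apart from a change in RNA per cell.

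Bex proteins are small and largely disordered. In rodents, Ngfrap1 (also called NADE) binds the p75 neurotrophin receptor and takes part in its death signal, Bex1 has been tied to the same receptor and to calmodulin, and Bex1 is known in regenerating skeletal muscle. Tceal genes are named for their likeness to transcription elongation factor A, and Tceal7 is known in mouse muscle as a brake on myoblast proliferation. The genes lie close together on the X chromosome, arose by duplication, and have stretches of near-identical sequence, which matters for hybridisation. A promoter element shared by Bex, Tceal and Gprasp genes, the BGW motif, has been described in mammals.

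The first sequences shown bear on which gene a signal belongs to. The array probes are 60 bases long, and the probes named Tceal3 and Tceal6 share an unbroken run of 41 bases. The run covers bases 1 to 41 of the Tceal3 probe and bases 14 to 54 of the Tceal6 probe. The last 24 bases of the run are in capitals below, followed in lower case by the next 6 bases, in which the probes part:
Tceal3 probe: ACAGGATTTTCACCCATGTGCATGtacatt
Tceal6 probe: ACAGGATTTTCACCCATGTGCATGaaaaat
No other pair among the member probes and those of the relatives Tceal7, Tceal9 and Bex6 shared more than 10 bases in a row. The Ngfrap1 probe shared up to 19 bases with probes of other names, and the Tceal1 probe shared 16 with 1 other probe. RNA of Tceal3 and of Tceal6 can therefore not be assigned to 1 gene by these probes alone. Probes were compared only with other probes and not with whole transcripts. Signal from the RNA of another family gene was therefore not tested for any of them. The dimmer of the 2 Bex1 probes, shown because it gives Bex1 a second reading with no such overlap between probes, is:
Bex1 dimmer probe: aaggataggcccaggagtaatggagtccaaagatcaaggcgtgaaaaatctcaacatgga

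The second set of sequences surrounds the annotated gene starts, taken from RefSeq windows (GRCm38.p6) that run from 250 bases before to 50 after each start, 13 windows for the 9 genes. They are shown because the same element lies there in members whose siRNA and control readings overlapped and in members whose readings did not. Capitals mark CACGTG, an E-box, and TGACG where it precedes it within 20 bases. Each line runs 5′ to 3′ on the gene's strand:
Tceal6 at chrX:135210684-135210729, minus strand: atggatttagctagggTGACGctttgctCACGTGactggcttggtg
Tceal3 at chrX:136666350-136666395, plus strand: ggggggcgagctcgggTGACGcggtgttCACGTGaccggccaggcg
Bex1 at chrX:136215499-136215544, minus strand: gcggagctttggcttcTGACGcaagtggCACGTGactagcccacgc
Bex4 at chrX:136138959-136139004, plus strand: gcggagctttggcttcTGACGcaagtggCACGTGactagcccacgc
Tceal5 at chrX:136203882-136203927, minus strand: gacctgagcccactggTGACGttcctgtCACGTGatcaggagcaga
Tceal8 at chrX:136172222-136172262, minus strand: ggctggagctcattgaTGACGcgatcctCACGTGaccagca
Tceal1 at chrX:136707953-136707998, plus strand: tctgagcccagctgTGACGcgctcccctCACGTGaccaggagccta
Tceal7 at chrX:136223953-136223998, plus strand: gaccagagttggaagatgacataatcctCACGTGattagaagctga

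CACGTG, a palindrome that reads the same on both strands, was found in 10 of the 13 member windows, which belong to 8 of 9 genes, and in 7.15% of all 32851 windows and 8.59% of the 1223 windows on the X chromosome. Bex2 was the member without it in its window. That window was 84.8% identical to the Ngfrap1 window over 263 bases, at a shift of 37 bases. At this shift the place matching the Ngfrap1 element falls past the end of the Bex2 window and was not searched. TGACG within 20 bases before CACGTG on the same strand was found in 10 of the 13 member windows, of the same 8 genes, and in 0.314% of all windows. Windows of 1 gene overlap in part and can hold the same element. The gap was 7 bases in Tceal6, Tceal3, Bex1, Bex4, Tceal5 and Tceal8, and 9 bases in Tceal1. The longer run TCACGTGAC, which contains CACGTG, was found for Tceal1, Tceal3, Tceal5, Tceal6, Tceal8 and Ngfrap1 (8 of 13 windows), and in 0.782% of all windows. These patterns were read off the members' own windows and then counted, and a match says nothing of which factor binds there.

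**Figure D1:**
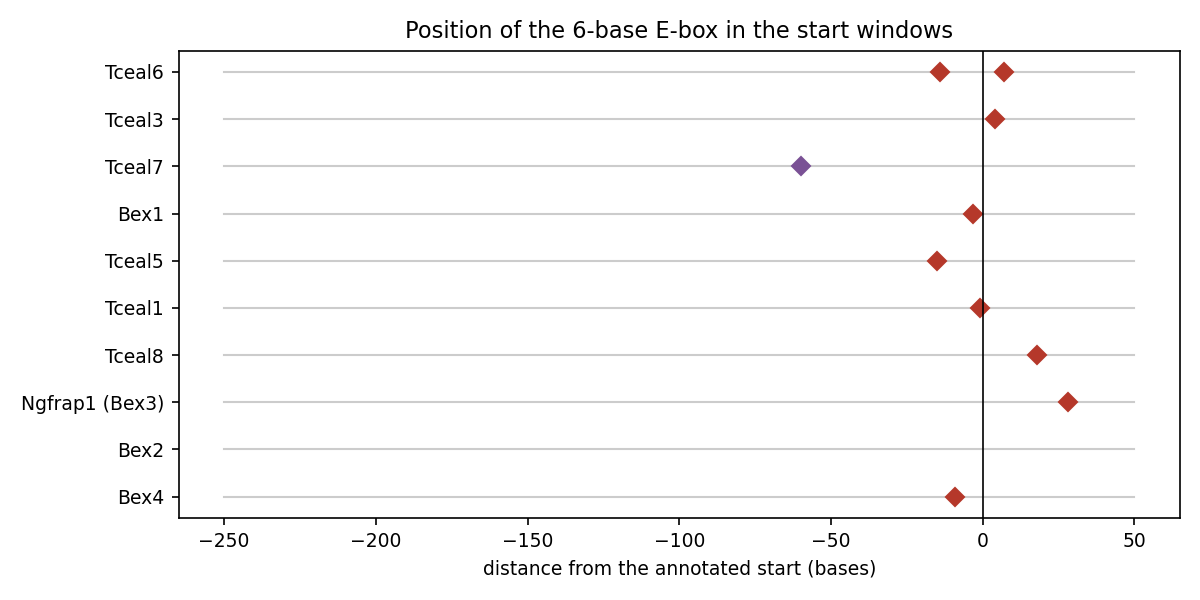
Each grey line is the window around the annotated start of a gene, from 250 bases before it to 50 after it, and diamonds mark the first base of each E-box (red for members, violet for the relative Tceal7). The genes are in falling order of their siRNA difference, except that Tceal6 is drawn before Tceal3, with the 2 dim genes last. For Tceal3, with several windows, one that holds the element is drawn. In the windows drawn, the element of all 8 member genes that have it lies from 15 bases before the start to 28 after it. Tceal7 has it 60 bases before, and the Bex2 window has none.

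Members with the element differed in their readings. Bex1 and Bex4 had windows that were 98% identical over 294 bases, with 271 bases in 1 run. The Bex1 probes were well above background on every array and the Bex4 probe was on none. Bex4 was read by this probe only, and probes differ in how well they hybridise. A silent gene can therefore not be told apart from a probe that does not work. The relation of the element to the readings was not tested. Tceal5, Tceal1, Tceal8 and Ngfrap1, which had the element, had overlapping groups, though their differences were also above 0 (1.0, 0.31, 0.26 and 0.15). Other sequences counted in the windows were CAGCTG, the E-box favoured by myogenic factors, in 2 of 13 member windows and 16.3% of all windows, and GGGCGG in 8 of 13 and 35.7%. CCAAT was found in 4 of 13 member windows and 37.4% of all windows, and TATAAA in 1 of 13 and 13.6%. Both strands were searched for each of these.

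Levels are log2 values from which the 75th percentile of the same array was subtracted, so that 1 unit is a factor of 2, and a level says nothing across probes, since probes differ in how well they hybridise. The macroH2A1 probes came first as a check of the labels. The probe listed for the macroH2A1.1 transcript differed by -1.42 on the log2 scale (SE 0.25, macroH2A1.1 siRNA minus control siRNA). The other 2 macroH2A1 probes differed by -0.99 and -1.11. On all 3 probes every macroH2A1.1 siRNA array was below every control array. The difference within same-numbered samples on the macroH2A1.1 probe was -1.53, -1.82, -1.67 and -0.66 for numbers 1 to 4, so the depletion was weakest in number 4.

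The measured Bex gene with the clearest difference was Bex1. Its brighter probe (mm9 chrX:132748552-132748611, minus strand) read 0.28, -0.46, 0.02 and -1.33 on the macroH2A1.1 siRNA arrays, against -1.55, -2.23, -1.58 and -2.67 on the control siRNA arrays. All 4 macroH2A1.1 siRNA arrays were above all 4 controls, and in both groups replicate 4 was the lowest. The means were -0.37 ± 0.71 with macroH2A1.1 siRNA and -2.01 ± 0.54 with control siRNA (SD, n = 4 each), a difference of 1.63 or 3.1-fold. The dimmer probe, to which the files give no position, read -1.02, -1.85, -1.38 and -2.42 with macroH2A1.1 siRNA and -2.55, -3.17, -2.59 and -3.39 with control siRNA. The groups did not overlap on it either, and the difference was 1.26 or 2.39-fold. The size depended on how background was treated: the dimmer probe differed by 0.65 with normexp background correction and by 0.58 in the authors' series values, and the brighter probe by 1.13 and 1.09.

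The second Bex gene above background was Ngfrap1, the p75 receptor partner (mm9 chrX:132805907-132805966, plus strand). It read 2.93, 3.28, 3.03 and 3.19 with macroH2A1.1 siRNA, against 2.84, 2.99, 2.88 and 3.13 with control siRNA. The groups overlapped, and the difference was 0.15 (SE 0.11, or 0.07 once blocked on the replicate number). It was above 0 in 4 of 4 numbered pairs, at 0.09, 0.29, 0.15 and 0.06, and passed the threshold in neither fit. Bex2 (chrX:132601237-132601296, minus strand) and Bex4 (chrX:132674810-132674869, plus strand), both mm9, gave no level above background in either group. Bex2 read between -6.53 and -5.34 with macroH2A1.1 siRNA and between -6.67 and -6.49 with control siRNA, and Bex4 between -6.41 and -6.16 with macroH2A1.1 siRNA and between -6.48 and -6.3 with control siRNA. The lowest level that counted as well above background was between -4.55 and -4.24 over the 8 arrays, so these values have no order.

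Among the Tceal genes the probes named Tceal3 and Tceal6 had the largest differences. The Tceal3 probe (mm9 chrX:133202837-133202896, plus strand) read 1.14, 1.38, 2.03 and 0.18 with macroH2A1.1 siRNA, against -1.56, -1.58, -0.27 and -1.39 with control siRNA. The lowest macroH2A1.1 siRNA array, replicate 4, was still above the highest control, replicate 3. The means were 1.18 ± 0.76 with macroH2A1.1 siRNA and -1.2 ± 0.63 with control siRNA (SD, n = 4 each), a difference of 2.38 or 5.21-fold. The Tceal6 probe (mm9 chrX:131743276-131743335, minus strand) read 1.69, 1.85, 2.71 and 0.71 with macroH2A1.1 siRNA, against -0.92, -0.82, 0.19 and -0.87 with control siRNA. Again the groups did not overlap, replicate 4 was lowest with macroH2A1.1 siRNA and replicate 3 highest in both groups. The difference was 2.34 or 5.07-fold, from means of 1.74 ± 0.82 with macroH2A1.1 siRNA and -0.61 ± 0.53 with control siRNA (SD, n = 4 each).

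The 2 probes followed each other on every array. The Tceal3 probe minus the Tceal6 probe was -0.55, -0.47, -0.68 and -0.52 with macroH2A1.1 siRNA, against -0.64, -0.76, -0.45 and -0.52 with control siRNA. The SD of this difference over the 8 arrays was 0.11. For comparison, the 2 brightest measured probes of a single gene differed with a median SD of 0.18 over 3869 genes, and 25.4% of those genes had an SD of 0.11 or less. The Tceal3 and Tceal6 probes thus followed each other as closely as 2 probes of 1 gene do. The second Tceal3 probe (mm9 chrX:133181550-133181609, plus strand) was not above background. Its levels were between -6.57 and -6.33 with macroH2A1.1 siRNA and between -6.65 and -6.46 with control siRNA. It is listed under another transcript than the first Tceal3 probe. Whether its dim reading holds for the transcript of the first probe was not tested. With 41 bases in common, the readings of the first Tceal3 probe and the Tceal6 probe count as 1 observation of Tceal3 or Tceal6 or both. How much each gene contributes was not tested.

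The 2 Bex1 probes agreed less closely in size. The brighter minus the dimmer was 1.3, 1.39, 1.4 and 1.09 with macroH2A1.1 siRNA, against 0.99, 0.94, 1.01 and 0.72 with control siRNA. The SD over the 8 arrays was 0.24, and 67.1% of genes with several measured probes had an SD at or below it. The direction of the siRNA difference was the same on both probes in each of the 4 numbered pairs, and the size was smaller on the dimmer one.

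**Figure D2:**
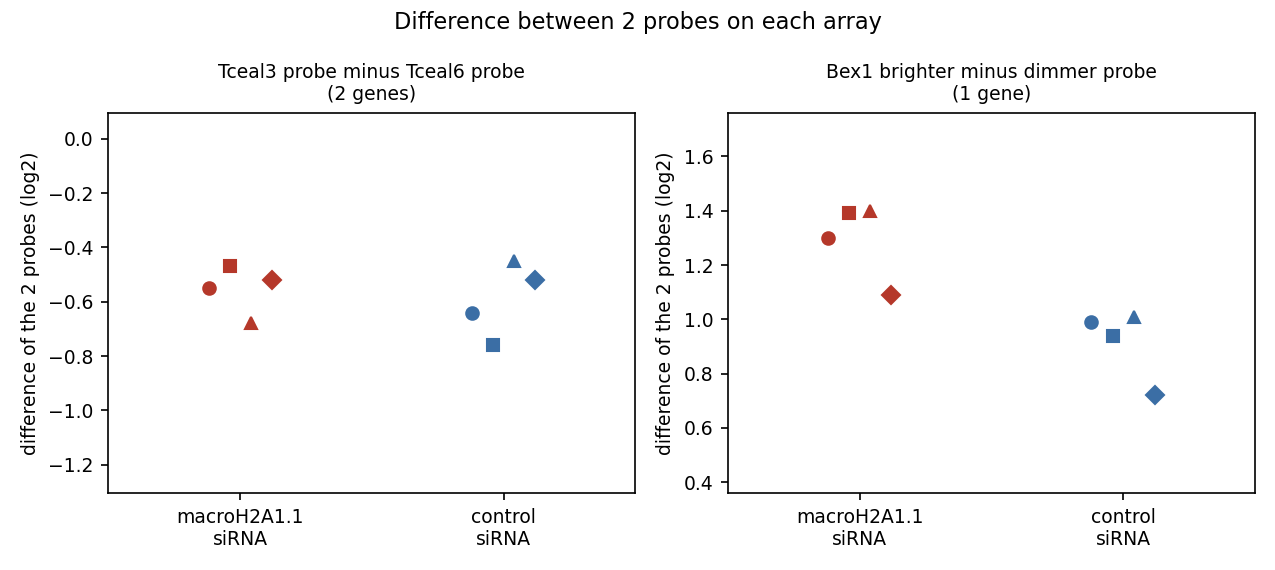
Difference of 2 probes on each array, in log2 units, with macroH2A1.1 siRNA arrays (red) left of control siRNA arrays (blue) and 1 symbol per replicate number as in the plot of levels. Both panels span the same range on the vertical axis. The Tceal3 and Tceal6 probes keep a difference between -0.76 and -0.45 on all 8 arrays in either group, while the Bex1 probes differ by 1.09 to 1.4 with macroH2A1.1 siRNA and by 0.72 to 1.01 with control siRNA.

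Tceal5 (mm9 chrX:132735590-132735649, minus strand), whose probe shared no long run with the others, read 3.78, 3.33, 3.79 and 2.78 with macroH2A1.1 siRNA, against 3.18, 1.83, 2.57 and 2.08 with control siRNA. Control replicate 1 lay above macroH2A1.1 siRNA replicate 4, so the groups overlapped. The difference was 1.0 (SE 0.33) or 2-fold. The Tceal5 probe minus the Tceal6 probe varied from 1.08 to 2.09 with macroH2A1.1 siRNA and from 2.39 to 4.1 with control siRNA (SD 0.93 over the 8 arrays), so these probes did not follow each other.

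Tceal1, a gene tied in human cells to promoter-dependent transcription, varied with the replicate number more than with the siRNA. Its probe (mm9 chrX:133243937-133243996, plus strand) read -1.9, -3.01, -3.38 and -2.08 with macroH2A1.1 siRNA, against -2.31, -3.49, -3.82 and -1.99 with control siRNA. Replicates 2 and 3 were low in both groups, replicates 1 and 4 high in both, and the difference of 0.31 had an SE of 0.48. Tceal8 (mm9 chrX:132706176-132706235, minus strand) read 1.79, 1.48, 1.38 and 1.25 with macroH2A1.1 siRNA, against 1.33, 1.11, 1.13 and 1.29 with control siRNA. It overlapped between the groups, with a difference of 0.26 (SE 0.13).

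**Figure D3:**
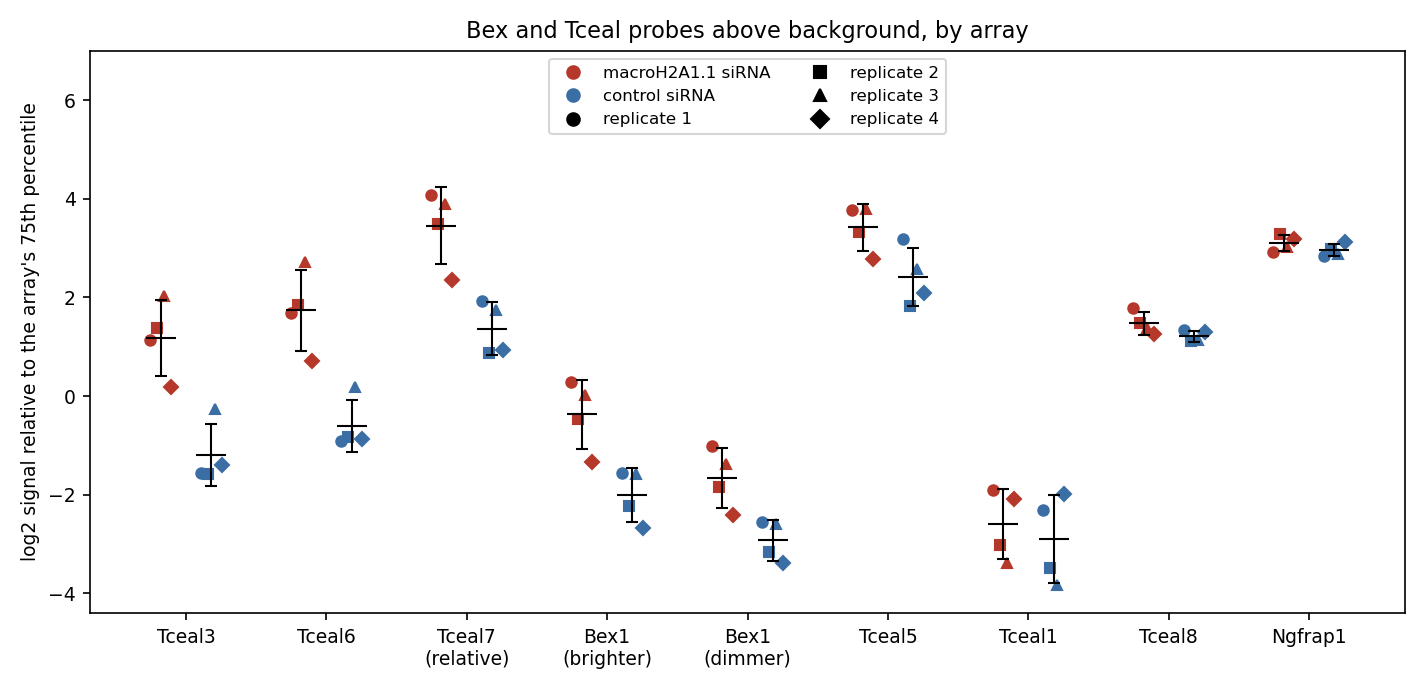
Levels on each array (log2, with the array's 75th percentile set to 0) for the 8 measured member probes and the relative Tceal7, with macroH2A1.1 siRNA (red) left of control siRNA (blue). Symbols give the replicate number, and black bars the mean ± SD (n = 4 each). The groups are apart for Tceal3, Tceal6, Tceal7 and both Bex1 probes and overlap for Tceal5, Tceal1, Tceal8 and Ngfrap1.

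Over the 8 measured probes, all 8 differences were above 0 and their median was 1.13, beside -0.01 over all 24987 measured probes. Groups did not overlap, with macroH2A1.1 siRNA higher, for 4 of 8 member probes (both Bex1 probes, Tceal3 and Tceal6), against 3.33% of all measured probes. In limma without a replicate term, with Benjamini-Hochberg adjustment over all measured probes at 0.05, 0 of 8 member probes passed, beside 0% of all probes higher and 0.004% (1 probe) lower. At an unadjusted p under 0.05 there were 5 member probes and 2549 of all probes. With the replicate number as a block, 5 of 8 passed as higher (both Bex1 probes, Tceal3, Tceal5 and Tceal6) and 0 as lower, beside 1.62% of all probes higher and 1.53% lower. The members were picked from this contrast, so these counts describe them and carry no support. Without pair 1, 2 or 3 the blocked count fell to 0 of 8, as did that over all probes, and without pair 4 the members numbered 4. The overlapping Tceal3 and Tceal6 probes enter these counts and the median of 1.13 as 2, and so do the 2 probes of Bex1. Counted by signed difference, Tceal3 ranked 31 and Tceal6 33 among the 24987 measured probes, the Bex1 probes 81 and 160, Tceal5 242, Tceal1 1917, Tceal8 2463 and Ngfrap1 5105.

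**Figure D4:**
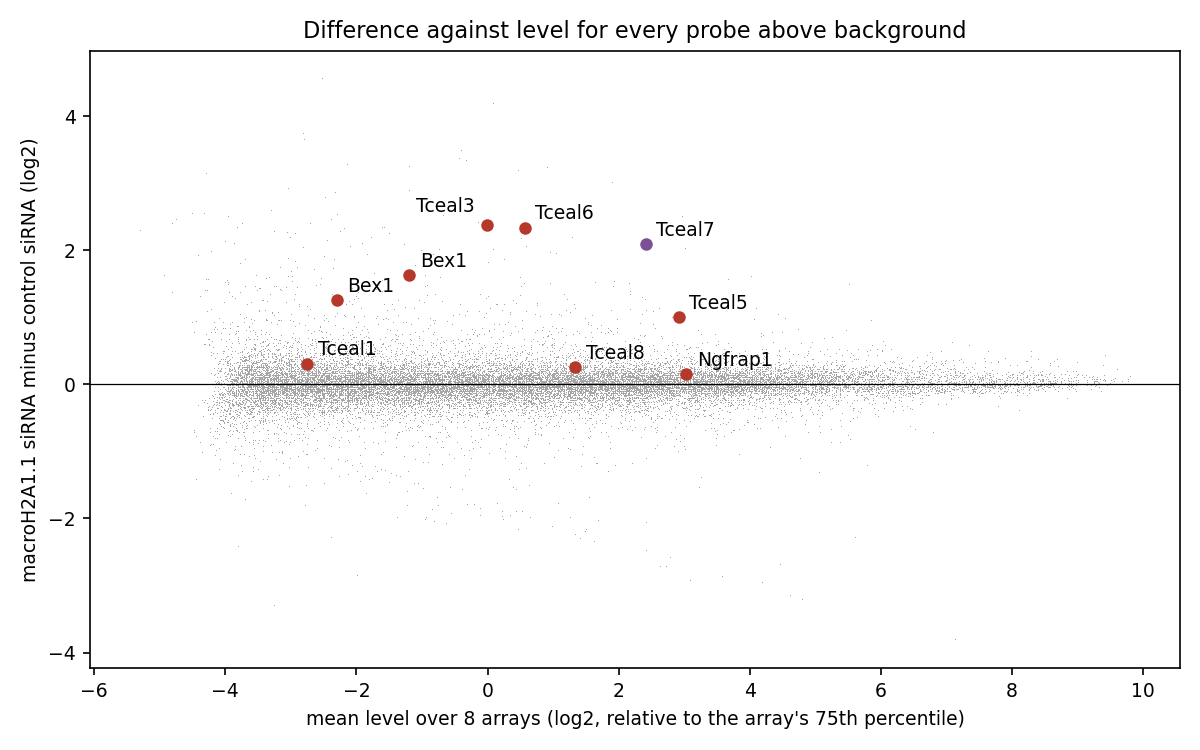
Each grey dot is 1 of the 24987 measured probes, with its mean level over the 8 arrays on the horizontal axis and the log2 difference between macroH2A1.1 siRNA and control siRNA on the vertical axis. Member probes are red and the relative Tceal7 violet. Tceal3, Tceal6 and Tceal7 lie above 2, both Bex1 probes and Tceal5 between 1.0 and 1.63, and Tceal1, Tceal8 and Ngfrap1 near the mass of probes at 0.

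The size of the differences varied between the numbered pairs. For Tceal3 the macroH2A1.1 siRNA sample minus the control sample of the same number was 2.7, 2.96, 2.29 and 1.57, and for Tceal6 it was 2.61, 2.67, 2.52 and 1.58. For the brighter Bex1 probe it was 1.83, 1.77, 1.6 and 1.33, and for the dimmer 1.53, 1.32, 1.21 and 0.97. Number 4, where macroH2A1.1 was depleted least, gave the smallest value of the 4 for each of these probes. For Tceal5 it was number 1, at 0.61, against 1.49, 1.21 and 0.7 in numbers 2 to 4. Tceal1 and Tceal8 were slightly below 0 in number 4, at -0.1 and -0.04, and above 0 in the others. Ngfrap1 was also smallest in number 4, at 0.06. A smallest value in number 4 was thus not particular to the probes with large differences. With 4 pairs, no relation between depletion and response was tested.

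**Figure D5:**
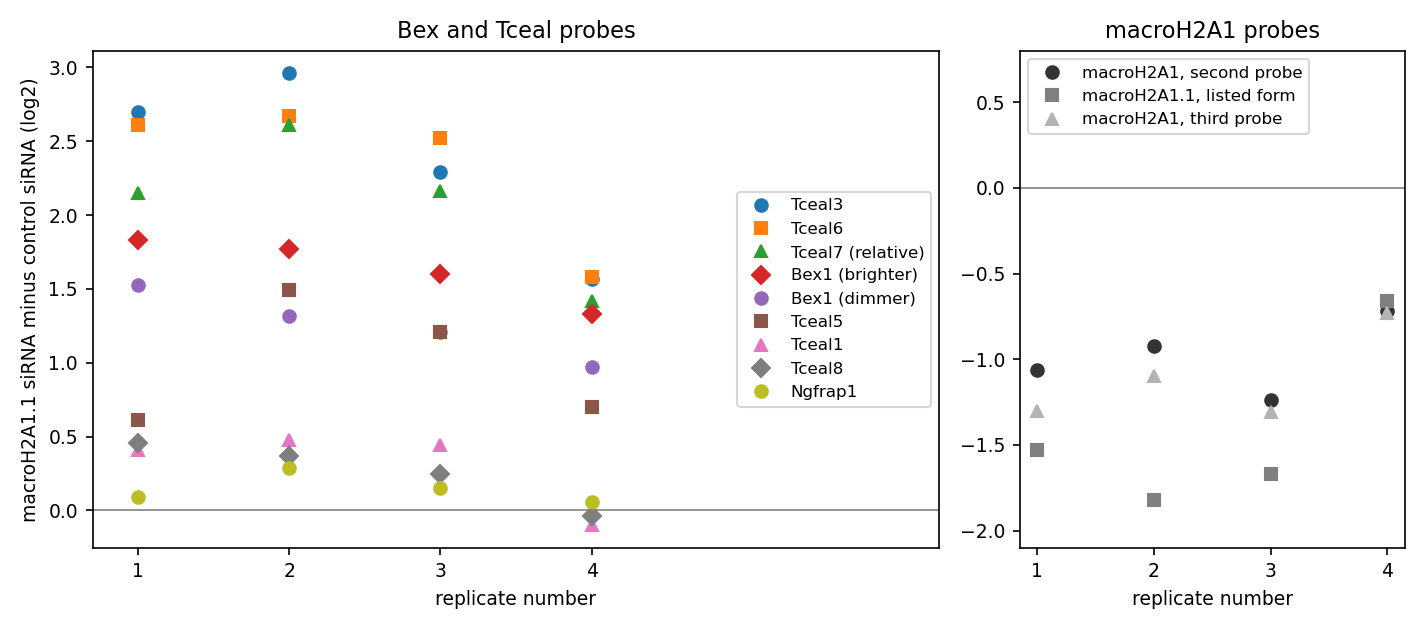
Log2 difference between the macroH2A1.1 siRNA sample and the control sample of the same replicate number, for the member probes and Tceal7 (left) and the 3 macroH2A1 probes (right). The replicate numbers have no order among themselves. Number 4 has the smallest value for every probe on the left except Tceal5, also where the difference is small. It has the weakest depletion on all 3 macroH2A1 probes.

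Among the relatives, taken from the same X-linked group or the same family, Tceal7 stood out. It read 4.08, 3.49, 3.9 and 2.35 with macroH2A1.1 siRNA, against 1.93, 0.88, 1.74 and 0.93 with control siRNA, with no overlap. The difference was 2.09 or 4.25-fold, with limma's adjusted p = 0.165 (SE 0.41) without the block and 0.021 (SE 0.19) with it. It rose in 4 of 4 pairs. Without pair 1, 2 or 3 its adjusted p with the block was 0.104, 0.0692 and 0.113. Of the 12 relatives 10 were measured, 8 were above 0 with a median of 0.16, and 1 (Tceal7) was higher with the block and 0 lower. Tceal9 differed by 0.23, Armcx4 by 0.46, Armcx5 by 0.30 and Armcx2 by -0.35, and none of these passed in the main fit without or with the block. More relatives passed with the block in some other settings, given at the end. In RefSeq order Tceal7 starts between Bex1 and Tceal3. By probe position Ngfrap1, which differed by 0.15, also lies between Bex1 and Tceal3. Tceal8, which differed little, lies beside Tceal5 and Bex1 on the same stretch. The Tceal6 probe lies outside this stretch, before that of Bex2.

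The processes for which the family is named or known were read from lists chosen with earlier results of these data known. In transcription elongation, 33 of 35 genes were measured, with a median difference of 0.07, and 0 passed in either direction with or without the block. The named members were Eloc, an elongin subunit, at 0.26 (adjusted p = 0.372 without and 0.106 with the block), and Leo1, a subunit of the PAF1 complex, at 0.24 (0.607 and 0.156). In the list of neurotrophin receptor signalling and calmodulin, 23 of 29 genes were measured and the median difference was -0.04. The p75 receptor gene Ngfr and the neurotrophin receptor gene Ntrk3 were among those not above background. With the block 1 gene rose and 1 fell, and without it 0 passed. Sort1, which encodes the p75 co-receptor sortilin, rose by 0.61 (adjusted p = 0.417 without and 0.0295 with the block), and 1 of its other 2 measured probes had the opposite sign. Bdnf, a neurotrophin gene, read 0.49, 0.84, 0.91 and 0.53 with macroH2A1.1 siRNA, against 1.18, 1.52, 1.49 and 1.14 with control siRNA. It fell by 0.64 (adjusted p = 0.197 without and 0.021 with the block), in 4 of 4 pairs and with no overlap. Neither Sort1 nor Bdnf passed without pair 1, 2 or 3, and Sort1 did not without pair 4 (adjusted p = 0.0533).

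The 4 genes whose centred levels over the 8 arrays lay closest to those of the brighter Bex1 probe were Fabp3, Tceal7, Synm and Myh1. Their root mean square difference from it was 0.26, 0.27, 0.32 and 0.32 in log2 units, beside a median of 1.0 over 18600 other measured probes with a gene name. Fabp3 encodes the heart and muscle fatty acid-binding protein, Synm an intermediate filament protein and Myh1 an adult fast myosin heavy chain. Among the family the value was 0.42 for Tceal5, 0.59 for Tceal6, 0.62 for Tceal3, 0.84 for Tceal8, 0.99 for Ngfrap1 and 1.2 for Tceal1. On control arrays the Synm probe was well above background on 2 of 4, so its value rests partly on readings near the floor. The likeness takes in the siRNA difference itself, which these 4 genes share.

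Genes of several marker lists moved in these arrays beside the family. All 12 myotube markers were measured and above 0, with a median of 0.36, and Des and Mylpf passed as higher with the block and 0 without it. Their summed linear level was 1840 to 2810 with macroH2A1.1 siRNA and 1550 to 2110 with control siRNA. Of 9 fibroblast markers 8 were measured, with a median of -0.17. With the block Fap passed as higher, at 2.40, and Postn as lower, at -1.01, and without it neither did (adjusted p = 0.196 and 0.641). Fap was well above background on 3 of 4 control arrays, so its difference rests partly on a reading below the floor, and the groups of Postn overlapped. The sum was 829 to 1170 with macroH2A1.1 siRNA and 936 to 1210 with control siRNA. Of 14 neuron markers 11 were measured with 0 past the threshold, Syt1, Elavl3 and Rbfox3 being below background, and the sum was 25 to 47.6 with macroH2A1.1 siRNA and 27.2 to 41.8 with control siRNA. Of 8 macrophage markers 5 were measured with 0 past the threshold, Ptprc, Lyz2 and Tyrobp being below background, and the sum was 19.1 to 25.6 with macroH2A1.1 siRNA and 21.6 to 24.3 with control siRNA. Of 10 interferon-response genes 9 were measured, 5 of them only through the macroH2A1.1 siRNA arrays, since 1 to 3 of their 4 control arrays were above background. The 4 above background on all 8 arrays were Ifit3, Oasl2, Isg15 and Irf7, which differed by 2.88, 2.51, 2.02 and 1.72. With the block Ifit3 passed as higher, as did Usp18 and Cxcl10, and 0 passed without it. Usp18 was above background on 1 and Cxcl10 on 3 of 4 control arrays, so their differences of 3.73 and 2.53 rest partly on the floor. With normexp they were 1.68 and 1.34, and in the authors' series values Usp18 differed by 1.59 and did not pass with the block (adjusted p = 0.0668). By number Ifit3 differed by 2.01, 3.94, 3.95 and 1.61. Number 4 was lowest, as it was for every measured member probe except Tceal5, and numbers 2 and 3 were highest. Without pair 1, 2 or 3 none of these genes passed. The part of any of these lists in the family's differences was not tested.

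All 8 arrays were on 1 slide, with 46.9% to 49.8% of non-control spots well above background and no saturated spot. Each slide row held both groups and each slide column 1 group, so column and siRNA cannot be told apart. Correlations between arrays were 0.9694 to 0.9929 over measured probes. With 4 arrays a group, small differences could not be resolved.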

How the data were processed

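Per the file headers, spot intensity was read by the authors in version 10.7.3.1 of Agilent's Feature Extraction, with annotation on build mm9. The deposited processed intensity is background-subtracted by that software. The deposited series table, used as an alternative, is taken to be log2: its columns correlated with the arrays' log2 median spot signal (r 0.9977 to 0.9996), and every column has a median of 6.29. How its background was treated is not given in the sources used here. Treated samples are called a knockout in a characteristic but siRNA in titles and design, and the siRNA was followed.

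From 500 ng of RNA per sample (per the labels' protocols), processed intensity was put on a log2 scale and the array's 75th percentile subtracted. Control spots did not enter, outlier spots (143 to 236 per array) were set missing, none of them on a member probe, and spots of a probe were averaged. Genes were named through RefSeq (GRCm38.p6, names and start windows only) by accession for 27509 probes, by symbol for 3549, by older symbol for 404, and as in the file for 1808. The files and tables give no exon or UTR at the probes. A gene with several measured probes is represented in the lists by the brightest.

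The siRNA contrast was fitted in R 4.3.3 with limma 3.58.1 (lmFit, eBayes, two-sided, Benjamini-Hochberg over 24987 probes, threshold 0.05), unblocked and blocked on the replicate number, after a test on simulated data. Deviations of same-numbered samples from their group means correlated at 0.579, 0.498, 0.629 and 0.354, and at most at 0.03 between numbers. Subtracting group means itself lowers the values between numbers where those within numbers are high. The numbers were taken as pairs. Same-numbered arrays also lay side by side in the same slide row, so pairing by culture and by slide position cannot be told apart. No column of other series was used (0). Tables, sequence searches and figures used Python 3.11.15, pandas 2.3.3 and matplotlib 3.10.9.

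Members, lists and tests were chosen with earlier results of these data known. Named were all member probes, up to 4 genes per list past the threshold in either fit by size (otherwise the 2 with the smallest unadjusted p), the 5 genes closest to Bex1 (1 of them is not reported here), and the macroH2A1 probes. Other genes named, among them the remaining relatives and markers, were chosen after their values were seen.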

Additional observations from a re-analysis of the deposited data

Results flagged for a closer look

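In 3 of the 22 groups of 4 arrays formed by the 11 member probes, 1 array lay far from the other 3 by Dixon's test, which chance does in about 1 in 20 groups. For Bex2, macroH2A1.1 siRNA replicate 4 read -5.34, against -6.53 to -6.36 on the other 3 arrays, and all of these are below background. For Tceal3, control siRNA replicate 3 read -0.27, against -1.58 to -1.39 in the other controls. For Tceal6, control siRNA replicate 3 read 0.19, against -0.92 to -0.82. The Tceal3 and Tceal6 probes share 41 bases, so these last readings are not independent, and in both macroH2A1.1 siRNA replicate 3 was also the highest of its group. Without control replicate 3 both kept their direction, as in every setting tried.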

How the results depend on the processing

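No measured member probe changed sign under any setting tried, though Tceal1 came to 0.0 at its lowest. Tceal3 ranged from 1.82 to 2.72, Tceal6 from 2.0 to 2.69, the Bex1 probes from 1.09 to 1.95 and 0.58 to 1.51, and Tceal5 from 0.81 to 1.26. The calls depended on the replicate block: members past the threshold numbered 0 without it and 5 with it, relatives 0 and 1, neurotrophin and calmodulin genes 0 and 2, interferon genes 0 and 3, and all probes 1 and 786. Without the block, all probes past the threshold numbered 3 with normexp, 0 with quantile normalization, 4 with the authors' series values, 5 with no filter, 7 with the filter on all 8 arrays, 3 with the array row as a block, 24 with the column as a random block, 3 with 1 probe per gene, and 0 to 17 without 1 array. With the block, all probes numbered 0 to 385 without 1 pair, and in combinations chosen after seeing the data 2399 with normexp, 2044 with the series values and 0 with no filter. Members with the block numbered 0 with no filter and 0 to 4 without 1 pair, and 4 or 5 in the other settings. Relatives with the block numbered 4 (3 higher, 1 lower) with normexp and with the series values, and 3 (2 higher, 1 lower) with 1 probe per gene. They numbered 2 with quantile normalization and with the filter on all 8 arrays, 0 with no filter, and 0 or 1 without 1 pair. Leaving out a pair also leaves fewer samples. Dim probes limit Bex2 and Bex4.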
